A study of Mus musculus with 46 samples.

Results

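Potassium channel genes were taken as every gene of the series' comparison table whose symbol begins with Kcn. The rule found 95 of 25883 genes, 1 row per gene, and 95 of 95 matched a mouse gene of the same symbol in the RefSeq GRCm38.p6 annotation and overlapped its position. The group holds the pore-forming subunits, the modifier subunits, the accessory subunits and 2 further symbols, Kcnq1ot1 (a noncoding RNA that overlaps Kcnq1) and Kcnrg. Per-array values on a log2 scale were at hand for 56 of the 95 genes. The other 39, of which 38 lie on chromosomes 1 to 6 and the last is Kcnn4 on chromosome 7, have only the authors' S-scores, signed standardised differences of 1 nicotine mouse from its saline controls.

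RNA came from the nucleus accumbens of 46 male mice, 1 Affymetrix MTA 1.0 array per mouse, and the labels give no age. Mice of the inbred strains DBA/2J and C57BL/6J, free of any engineered allele named in the labels, wore a subcutaneous osmotic minipump for 14 days that released nicotine at 24 mg/kg/day or saline alone. In withdrawal mice the pump was taken out 24 h before death, while chronic mice still carried it. In DBA/2J there were 5 nicotine and 6 saline mice in withdrawal and 6 of each in the chronic phase. In C57BL/6J there were 6 of each in withdrawal, and 5 nicotine and 6 saline mice in the chronic phase.

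Potassium channels let potassium leave a cell, which holds the resting potential, ends each action potential and sets the interval to the next. Each channel is built from pore subunits of 1 family, and modifier or accessory subunits change where it sits and how fast it opens and closes. In the medium spiny neurons, the principal cells of the accumbens, inward rectifiers keep the silent state, A-type and slow voltage-gated channels delay firing, and G protein-gated channels carry part of the response to dopamine and opioid receptors.

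The strain contrasts below turned on Kcnc2, Kcnf1 and Kcnq3, the members called between the strains in both the nicotine and the saline mice, and the promoters of these genes are shown as the start of the transcripts measured. Of the 95 genes, 70 have an entry in the RefSeq promoter set, Kcnq3 not among them. The 250 bases before the annotated start are given 5′ to 3′ on the gene's own strand, at chr10:112270871-112271120 (plus strand) for Kcnc2 and chr12:17176889-17177138 (minus strand) for Kcnf1, build GRCm38.p6. Capitals mark the E-box CAGCTG.
Kcnc2: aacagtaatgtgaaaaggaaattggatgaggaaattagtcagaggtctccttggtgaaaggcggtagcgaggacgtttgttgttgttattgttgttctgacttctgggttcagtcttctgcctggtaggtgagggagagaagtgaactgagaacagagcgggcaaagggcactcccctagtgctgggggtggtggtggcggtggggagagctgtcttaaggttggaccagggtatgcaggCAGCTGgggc
Kcnf1: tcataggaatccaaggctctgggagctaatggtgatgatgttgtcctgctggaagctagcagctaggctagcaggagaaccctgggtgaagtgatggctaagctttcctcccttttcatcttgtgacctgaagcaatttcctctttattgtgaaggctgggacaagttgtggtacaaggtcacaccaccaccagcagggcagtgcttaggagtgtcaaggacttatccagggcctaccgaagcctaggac
Both strands were searched for 4 motifs, none of which contains another. The cyclic AMP response element was searched as TGACGTCA. The GC box, common in mouse promoters, was searched as GGGCGG. The TATA box was searched by the letters TATAAA. The E-box was the only match, in Kcnc2, where its first base stands at -10 from the start, and none of the 4 was found in the Kcnf1 window. Among 32851 mouse promoters of this length, 13.0% hold the E-box, 32.7% the GC box, 12.4% the TATA box and 1.55% the cyclic AMP response element. GC content was 52.8% for Kcnc2 and 51.2% for Kcnf1, against a median of 52.4% over all promoters.

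Testing on the log2 scale required a gene to be brighter, on 5 or more arrays, than the 50th percentile of that array without its control features. This held for 40 of the 56 Kcn genes with array values, among 9607 of 16322 genes. Of the spiny neuron markers, the 12 with array values, among them Drd2, Adora2a, Ppp1r1b and Rgs9, passed on 46 of 46 arrays. The 7 cortical excitatory markers with array values, among them Slc17a7 and Sv2b, also passed on 46 of 46 arrays. Passing this filter therefore cannot set accumbens tissue apart from cortex. Each array correlated with the rest of its group at 0.993 or more, 0 array pairs held identical values, and the labels name no batch, so none could be tested. In pieces of tissue, fewer cells of a type and less RNA per cell cannot be told apart. Each gene was fitted with limma over the 8 groups, and "called" means a Benjamini-Hochberg adjusted p under 0.05 over all 9607 genes of the contrast.

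By subfamily, the genes tested were 3 of 4 Kcnc, 1 of 3 Kcnd, 5 of 8 Kcnh and 1 of 5 Kcnq among the voltage-gated pores, and 0 of 8 Kcna and 0 of 2 Kcnb, nearly all of which have S-scores only. They were 7 of 15 inward rectifiers (Kcnj), 7 of 14 tandem-pore leak channels (Kcnk), 2 of 4 small-conductance calcium-activated channels (Kcnn) and 1 of 4 of the Slo family, namely Kcnma1. Among the accessory subunits 1 of 3 Kcnab, 2 of 5 Kcne, 2 of 4 Kcnip and 2 of 4 Kcnmb were tested, with 5 of 10 modifier subunits and Kcnq1ot1. The 16 genes with dim signals were Kcna7, Kcnj1, Kcnj5, Kcnj15, Kcnk5, Kcnk7, Kcnk16, Kcnk18, Kcnq1, Kcnu1, Kcne1, Kcne3, Kcng4, Kcns3, Kcnv2 and Kcnrg. They include genes best known from other organs, such as Kcnj1 of the kidney tubule, Kcnq1 of the heart and Kcnu1 of sperm, and their mean log2 values lay between 4.54 (Kcnv2) and 6.16 (Kcnk7), where the 50th percentile of an array lay between 6.302 and 6.456. Kcnip1 and Kcnmb1 overlap each other on the chromosome, so their signals may not be independent.

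The spread between mice of 1 group set what could be seen. The pooled within-group SD of the 40 tested members ran from 0.0641 log2 units for Kcng2 to 0.424 for Kcnj6, the G protein-gated inward rectifier, with a median of 0.150, against a median of 0.124 over all 9607 genes. The distance between the highest and the lowest of the 8 group means ran from 0.0721 for Kcnh6 to 0.70 for Kcnc2, with a median of 0.231. For Kcnc2 the highest group mean was that of DBA/2J withdrawal nicotine mice and the lowest that of C57BL/6J chronic nicotine mice.

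The strains differed in a minority of the potassium channel genes and by small amounts. In saline mice, averaged over both phases, 8 of 40 members were called, 4 higher and 4 lower in DBA/2J than in C57BL/6J. The background was 31.8% of all genes tested (12.5% higher and 19.4% lower), more than the members' share. In nicotine mice 5 of 40 were called, against a background of 26.2% (15.4% higher and 10.8% lower). No member exceeded 0.5 log2 units in either, and 0 of the 40 had ranges of the strains that did not overlap, against 4.67% of all genes in saline and 4.77% in nicotine mice. The split of 4 higher and 4 lower in saline mice was 1 higher and 7 lower with each array centred on its median and 3 higher and 5 lower after quantile normalization. With the mean of the spiny neuron, cortical and oligodendrocyte markers of each mouse as covariates, 9 members were called in nicotine mice and 2 in saline mice. The shares of all genes called under these settings are not given here, so these counts cannot be set against a background. A difference in RNA level and a difference in how DBA/2J sequence binds the probes cannot be told apart in these data.

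Kcnc2 encodes a fast delayed rectifier pore that lets fast-spiking interneurons repolarise quickly (chr10:112271121-112466304, 90 probes). In nicotine mice its log2 value was 8.676 at the lowest, 9.166 at the median and 9.713 at the highest in DBA/2J, against 8.262, 8.777 and 9.031 in C57BL/6J. Under saline it was 8.871, 9.207 and 9.462 in DBA/2J, against 8.229, 8.823 and 9.627 in C57BL/6J. Most DBA/2J mice lay higher, but the ranges overlapped, and in nicotine mice the lowest DBA/2J value was below the C57BL/6J median. The difference was 0.43 (SE 0.119, limma adjusted p = 0.00521) in nicotine mice, a fold of 1.35, with 9 of 11 DBA/2J mice above the C57BL/6J mean. Under saline it was 0.35 (SE 0.114, limma adjusted p = 0.01618), with 12 of 12 above.

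The markers of interneurons were also higher in DBA/2J. The mean of 4 of the 6 interneuron markers differed by 0.31 log2 units in nicotine mice, where single mice ran from -0.10 to 0.42 in DBA/2J and from -0.32 to 0.01 in C57BL/6J around the mean of all mice. Among saline mice it differed by 0.15, from -0.12 to 0.41 in DBA/2J and from -0.36 to 0.17 in C57BL/6J. The part of interneurons in the Kcnc2 difference was not tested. With the spiny neuron, cortical and oligodendrocyte marker means as covariates the difference was 0.59 in nicotine and 0.44 in saline mice, both still called.

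Kcnf1, a modifier subunit that forms no channel alone and alters Kcnb pores, was lower in DBA/2J (chr12:17172100-17176888, 30 probes). In nicotine mice it ran from 8.041 over a median of 8.295 to 8.465 in DBA/2J, against 8.225, 8.613 and 9.121 in C57BL/6J. In saline mice the values were 7.816, 8.264 and 8.559 in DBA/2J, against 8.137, 8.604 and 9.084 in C57BL/6J. Every DBA/2J mouse lay below the C57BL/6J mean, 11 of 11 and 12 of 12, although the ranges overlapped. The differences were -0.36 (SE 0.102, limma adjusted p = 0.006627) in nicotine and -0.34 (SE 0.0969, limma adjusted p = 0.005939) in saline mice. With the 3 marker means as covariates they were -0.22 and -0.19, and neither was called (adjusted p = 0.09421 and 0.2375).

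Kcnq3 encodes a pore subunit of the M current, the slow potassium current that muscarinic receptors shut off (chr15:65986387-66286224, 223 probes). In nicotine mice its value was 12.81 at the lowest, 13.17 at the median and 13.27 at the highest in DBA/2J, against 13.16, 13.29 and 13.58 in C57BL/6J. Under saline it was 12.97, 13.08 and 13.28 in DBA/2J, against 13.08, 13.29 and 13.38 in C57BL/6J. This gene had the smallest adjusted p of the members in both contrasts, with a difference of -0.23 (SE 0.0490, limma adjusted p = 0.0002331) in nicotine and -0.19 (SE 0.0467, limma adjusted p = 0.001488) in saline mice. With the marker means as covariates the saline difference was -0.12 and was not called (adjusted p = 0.2067), while the nicotine difference was -0.17 and remained called. Among the groups, the 5 DBA/2J withdrawal nicotine mice were the closest together, between 13.17 and 13.18.

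Several marker lists were also lower in DBA/2J. The mean of 9 of 13 oligodendrocyte markers differed between the strains by -0.27 in nicotine and -0.26 in saline mice. Single saline mice ran from -0.33 to 0.13 in DBA/2J and from -0.22 to 0.50 in C57BL/6J. The mean of 12 of 17 spiny neuron markers differed by -0.10 in nicotine and -0.19 in saline mice, from -0.42 to 0.08 in DBA/2J and from -0.45 to 0.32 in C57BL/6J saline mice. The mean of 7 of 11 vessel markers differed by -0.07 in nicotine and -0.17 in saline mice, and that of the cortical excitatory markers by -0.09 in both. The covariate fits given with the members used the oligodendrocyte, spiny neuron and cortical means but not the vessel mean. The cause of the strain differences was not tested.

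Among the inward rectifiers, Kcnj4 and Kcnj16 were called in 1 contrast each. Kcnj4, a strong inward rectifier of the forebrain (chr15:79483714-79505241, 21 probes), ran in saline mice from 10.10 over a median of 10.47 to 10.60 in DBA/2J, against 10.41, 10.59 and 11.05 in C57BL/6J. The DBA/2J mice all lay below the C57BL/6J mean and overlapped its lower mice, with a difference of -0.22 (SE 0.0697, limma adjusted p = 0.01243) in saline mice. In nicotine mice the difference was -0.17 and did not pass (adjusted p = 0.0788), and with the marker means as covariates the saline difference was -0.03 (adjusted p = 0.8494).

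Kcnj16 encodes a subunit that pairs with Kcnj10 in glia and kidney (chr11:110968033-111027968, 78 probes). In nicotine mice it ran from 8.153 over a median of 8.453 to 8.659 in DBA/2J, against 7.696, 8.231 and 8.502 in C57BL/6J. The difference was 0.26 (SE 0.0737, limma adjusted p = 0.005555), with 10 of 11 DBA/2J mice above the C57BL/6J mean, and the lowest C57BL/6J values were those of withdrawal mice. In saline mice the difference was 0.17 and did not pass (adjusted p = 0.0651). The astrocyte marker mean, 9 of 11 genes, differed by 0.08 in nicotine and 0.02 in saline mice. The covariate fit gave 0.17 in nicotine mice (adjusted p = 0.1292).

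Among the tandem-pore leak channels, Kcnk1 was called in saline and Kcnk12 in nicotine mice, in opposite directions. Kcnk1 encodes a weak inward-rectifying leak channel (chr8:125995102-126030688, 40 probes). In saline mice it ran from 12.07 over a median of 12.38 to 12.62 in DBA/2J, against 12.33, 12.49 and 12.75 in C57BL/6J, a difference of -0.16 (SE 0.0566, limma adjusted p = 0.02455). In nicotine mice the strains covered almost the same range, 12.06 to 12.59 in DBA/2J and 12.10 to 12.59 in C57BL/6J. The saline difference was -0.01 with the marker means as covariates (adjusted p = 0.935), and its call was lost in 3 of 24 repeats that left out 1 saline mouse.

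Kcnk12, a halothane-inhibited member of the family (chromosome 17, 37 probes), ran in nicotine mice from 6.746 over a median of 7.113 to 7.252 in DBA/2J, against 6.639, 6.842 and 7.106 in C57BL/6J. Most DBA/2J mice, 10 of 11, were above the C57BL/6J mean, with a difference of 0.24 (SE 0.0742, limma adjusted p = 0.0109). Among saline mice the difference was 0.12 (95% interval -0.02 to 0.26) and did not pass. The covariate fit kept the call in nicotine mice, with 0.29 (adjusted p = 0.007755).

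Of the 5 modifier subunits tested, Kcng2 and Kcng3 were called beside Kcnf1, higher in DBA/2J saline mice where Kcnf1 was lower. Kcng3 (chromosome 17, 49 probes) ran from 10.15 over a median of 10.44 to 11.11 in DBA/2J, against 9.733, 10.29 and 10.48 in C57BL/6J, a difference of 0.25 (SE 0.0990, limma adjusted p = 0.04643). The DBA/2J chronic saline mouse 1 held the highest value, 11.11, and without it the difference was 0.19 (adjusted p = 0.1095). The call was lost in 15 of 24 repeats that left out 1 saline mouse. Kcng2 (chromosome 18, 110 probes) ran from 6.961 over a median of 7.079 to 7.241 in DBA/2J, against 6.923, 7.001 and 7.095 in C57BL/6J. Its difference was 0.08 (SE 0.0289, limma adjusted p = 0.03089), and the call was lost in 7 of 24 such repeats. With the covariates Kcng2 was at 0.04 and Kcng3 at 0.25, and neither was called.

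The last called member was Kcnq1ot1, the noncoding RNA that silences imprinted genes around Kcnq1 (chr7:143213111-143298451, 170 probes). In saline mice it ran from 10.38 over a median of 10.52 to 10.71 in DBA/2J, against 10.16, 10.41 and 10.50 in C57BL/6J. The difference was 0.15 (SE 0.0447, limma adjusted p = 0.007697), and 11 of 12 DBA/2J mice were above the C57BL/6J mean. In nicotine mice the ranges were nearly the same, 10.41 to 10.70 in DBA/2J and 10.21 to 10.69 in C57BL/6J. With arrays centred on their median the saline difference was 0.10 and was not called, and with the covariates it was 0.14 (adjusted p = 0.125).

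**Figure D1:**
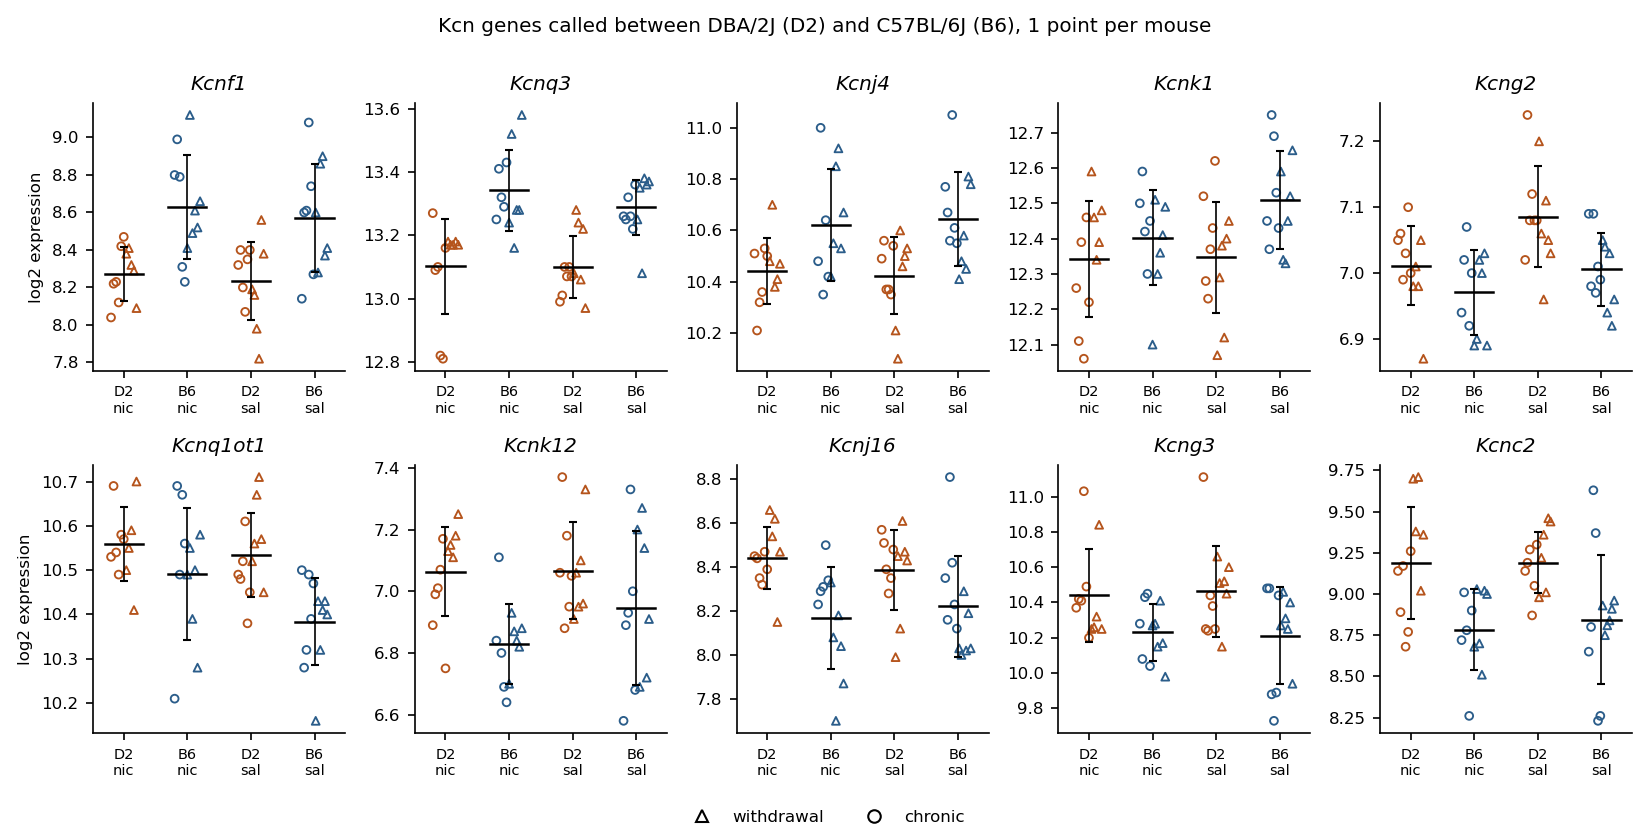
Log2 array values of the 10 Kcn genes called between the strains in saline or nicotine mice, 1 panel per gene, with 1 point per mouse for DBA/2J nicotine, C57BL/6J nicotine, DBA/2J saline and C57BL/6J saline mice (circles for chronic, triangles for withdrawal mice, bars for means, whiskers for SD). Kcnc2 sits higher and Kcnf1 and Kcnq3 lower in DBA/2J under both treatments, and in all 10 panels the strains overlap.

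The nicotine mice and the saline mice are separate animals, so the strain difference was measured in each independently. Of the 10 members called in either, 10 had the same sign in both. The 3 called in both, Kcnc2, Kcnf1 and Kcnq3, make up 60.0% of the nicotine list and 37.5% of the saline list. Over all 40 members 27 had the same sign, and Pearson's r between the 2 differences was 0.804, a description over genes measured on shared arrays. limma's test of a change of the strain difference with treatment called 0 of 40 members (0.0% of all genes). This does not show that the differences were the same under both treatments. In that test 1 of 40 members had an unadjusted p under 0.05, against 12.3% of all genes. That member was Kcnd1, a pore of the A-type current, with 0.18 (unadjusted p = 0.008925, limma adjusted p = 0.3065).

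**Figure D2:**
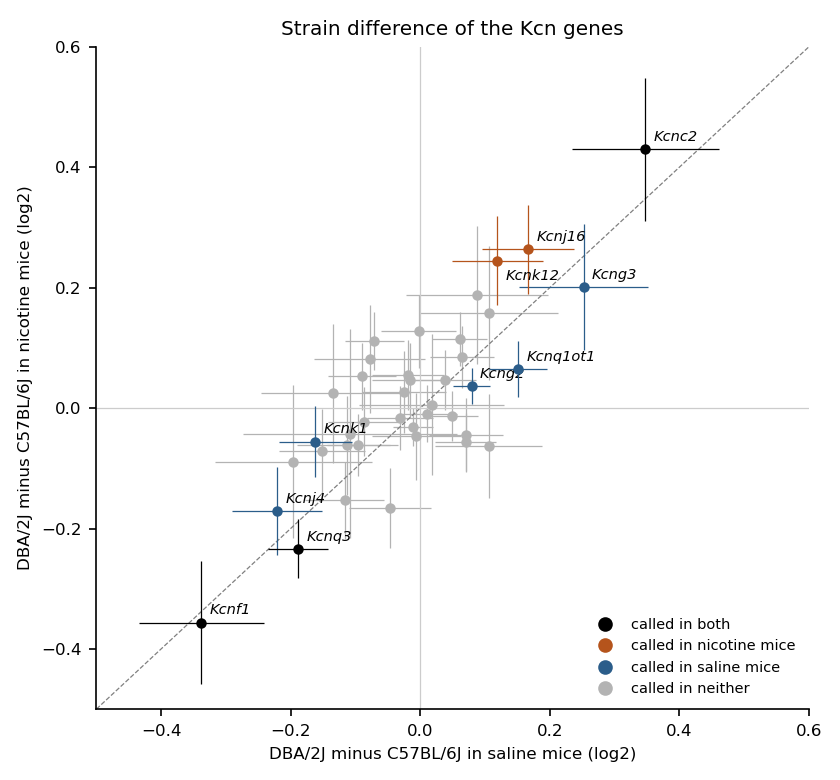
DBA/2J minus C57BL/6J log2 difference of the 40 Kcn genes tested, in nicotine mice against saline mice, with standard errors as bars and equality as a dashed line. Kcnc2 (0.43 and 0.35) and Kcnf1 (-0.36 and -0.34) lie farthest out at the 2 ends, and the 10 called genes lie on the same side of 0 on both axes.

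Members that did not pass between the strains lay close to 0 in most subfamilies. The 5 Kcnh genes of the ether-a-go-go family ran from -0.07 to 0.09 in nicotine and from -0.15 to 0.06 in saline mice, the lowest both times being Kcnh4, a striatal member (saline adjusted p = 0.0794). The values nearest the threshold in nicotine mice were Kcnn1 with 0.11 (adjusted p = 0.0529), Kcnk6 with -0.17 (0.0601), Kcns2 with -0.15 (0.0725) and Kcnd1 with 0.11 (0.0811). Kcnma1, the large-conductance calcium-activated pore, was at -0.05 in nicotine and -0.01 in saline mice. Its intervals, -0.19 to 0.10 and -0.14 to 0.13, leave out differences beyond 0.2 log2 units. For Kcnj6 the interval was far wider, -0.39 to 0.31 in nicotine and -0.44 to 0.22 in saline mice, so a difference of a size called elsewhere was not detectable there. Without the filter on dim genes, Kcnk16 (0.21), Kcne1 (0.17), Kcnj5 (0.14) and Kcns3 (-0.20) were also called in saline mice and Kcns3 (-0.20) in nicotine mice. The shares of all genes called without the filter are not given here, so these calls cannot be set against a background.

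Nicotine against saline was the question the treatment addressed, and no potassium channel gene passed in it. In each of the 4 pairs of strain and phase limma called 0 of 40 members and 0 of 9607 genes (0.0%). The lowest adjusted p over all genes was 0.8132 in DBA/2J withdrawal, 0.9999 in C57BL/6J withdrawal, 0.6065 in DBA/2J chronic and 0.9919 in C57BL/6J chronic mice. Unadjusted p-values under 0.05 were found for 3 members in DBA/2J withdrawal (5.45% of all genes), 0 in C57BL/6J withdrawal (2.98%), 2 in DBA/2J chronic (8.0%) and 0 in C57BL/6J chronic mice (4.68%). The 95% interval of a member reached 0.17 to 0.18 log2 units to either side at the median, and the whole interval lay within 0.5 for 34, 39, 37 and 39 of the 40 members in that order of groups. Differences well inside these intervals were not detectable with these numbers of mice.

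The direction of the members differed between the groups. In DBA/2J withdrawal mice 30 of 40 members had a positive difference, with a median of 0.05, against 62.1% of all genes and a median of 0.02. In C57BL/6J withdrawal mice it was 18 of 40 (median -0.02, against 47.0% of all genes), in DBA/2J chronic mice 14 of 40 (-0.02, against 62.0%) and in C57BL/6J chronic mice 15 of 40 (-0.02, against 34.5%). The DBA/2J withdrawal count was 34 of 40 with arrays centred on their median and 32 of 40 after quantile normalization, and 23 of 40 with the 3 marker means as covariates. The DBA/2J chronic count was 21, 8 and 22 of 40 under the same settings. The shares of all genes with a positive difference under these settings are not given here, so these counts cannot be set against a background. All members of a contrast share the same mice, so these counts are not 40 separate observations.

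Marker lists of several cell types also differed between nicotine and saline mice. The mean of 7 of 13 cortical excitatory markers differed between nicotine and saline mice by 0.18 in DBA/2J withdrawal and -0.42 in DBA/2J chronic mice, and by -0.25 and 0.01 in the C57BL/6J groups of the same phases. The spiny neuron markers differed by 0.09 and 0.22 in DBA/2J and by 0.13 and -0.01 in C57BL/6J, and the oligodendrocyte markers by 0.05 and -0.23 in DBA/2J and by -0.15 and -0.01 in C57BL/6J. The mean of the vessel markers differed by 0.13 in DBA/2J withdrawal mice, where 7 of 7 were positive, and by -0.05 in C57BL/6J withdrawal mice. That of the interneuron markers differed by 0.10 in withdrawal and 0.14 in chronic DBA/2J mice, and by 0.05 and -0.13 in C57BL/6J. Cortical markers also varied most between single mice, from -1.36 to 0.49 among DBA/2J nicotine and from -1.05 to 0.53 among DBA/2J saline mice around the mean of all mice. The part of these differences in the members' values was not tested beyond the covariate counts above.

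**Figure D3:**
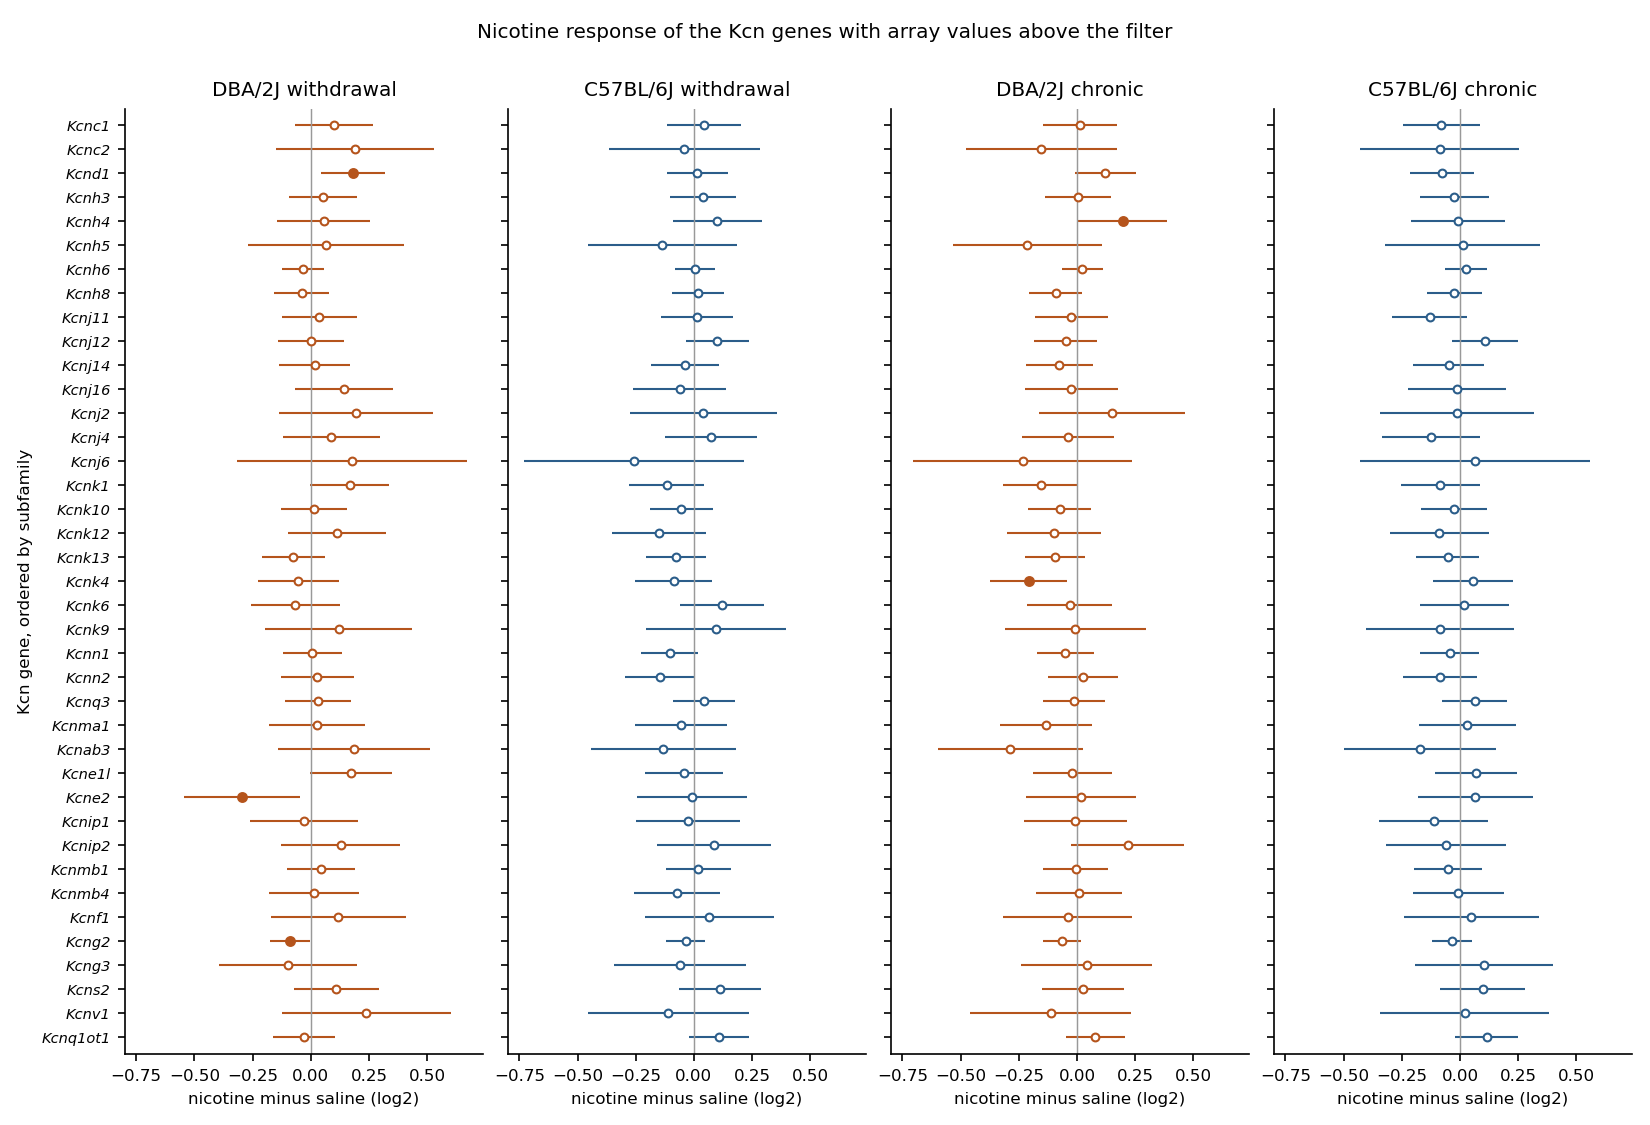
Nicotine minus saline log2 difference of 39 of the 40 Kcn genes tested, each with its 95% confidence interval, in DBA/2J withdrawal, C57BL/6J withdrawal, DBA/2J chronic and C57BL/6J chronic mice, filled points marking an unadjusted p under 0.05. Most members lie above 0 in DBA/2J withdrawal mice, and 3, 0, 2 and 0 points are filled in that order of panels.

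In DBA/2J withdrawal mice the pore genes with the smallest p were Kcnd1 and Kcnk1. Kcnd1 had 8.25, 8.27, 8.33, 8.37 and 8.46 in the 5 nicotine mice, against a lowest of 8.046, a median of 8.151 and a highest of 8.295 in saline mice. The 3 highest nicotine mice exceeded every saline mouse, and the difference was 0.18 (SE 0.0682, unadjusted p = 0.01173), not called. Kcnk1 had 12.34, 12.39, 12.46, 12.48 and 12.59 in nicotine mice, against 12.07 to 12.45 in saline mice, a difference of 0.17. Kcne1l, an accessory subunit now named Kcne5, was at 0.17 and Kcnj16 at 0.14. Kcnj16 was at 0.07 without DBA/2J withdrawal saline mouse 1 and at 0.23 without nicotine mouse 4 of that group.

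The downward values in this group were led by Kcne2, an accessory subunit known from the choroid plexus and the stomach. It had 6.59, 6.82, 6.93, 6.95 and 7.08 in nicotine mice, against 7.01 to 7.30 in saline mice, so that 4 of 5 nicotine mice lay below every saline mouse. The difference was -0.30 (SE 0.123, unadjusted p = 0.02058), not called. Of the choroid plexus and ependyma markers 3 of 7 were bright enough to test and their mean differed by 0.06, while Ttr, Folr1 and Otx2 were below the brightness filter. Kcng2 was at -0.09 (unadjusted p = 0.04215), Kcnk13, a leak channel of microglia, at -0.08 and Kcnh6 at -0.03. Kcnk13 was at -0.13 without saline mouse 3 and Kcnh6 at -0.01 without nicotine mouse 1.

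DBA/2J chronic mice had both directions. Kcnk4, a mechanosensitive leak channel, ran from 7.29 over a median of 7.62 to 7.73 in nicotine mice, against 7.67, 7.80 and 7.94 in saline mice. The groups met only at the edge, and the difference was -0.21 (SE 0.0815, unadjusted p = 0.01479), not called. Kcnab3, a beta subunit of Kcna channels, was at -0.29, Kcnk1 at -0.16 and Kcnh8 at -0.09. Kcnh4 ran from 8.52 to 9.12 in nicotine mice, against 8.48 to 8.78 in saline mice, with a difference of 0.20 (SE 0.0947, unadjusted p = 0.04352). The other upward values were Kcnip2, which binds Kcnd pores, at 0.22, Kcnd1 at 0.12 and Kcnq1ot1 at 0.08, and with the marker covariates Kcnip2 was at -0.02. Kcnh4 was at 0.13 without nicotine mouse 1 and Kcnh8 at -0.06 without saline mouse 6.

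In the C57BL/6J groups no member had an unadjusted p under 0.05. The value furthest from 0 in withdrawal mice was that of Kcnj6, -0.26 with a 95% interval from -0.73 to 0.21. In withdrawal mice the smallest p belonged to Kcnk12 (-0.15), Kcnn2 (-0.15), Kcnk1 (-0.12) and Kcnn1 (-0.10) on the lower side and to Kcnk6 (0.12), Kcns2 (0.11), Kcnq1ot1 (0.11) and Kcnj12 (0.10) on the upper side. Kcnn1 and Kcnn2 encode small-conductance calcium-activated pores. Without saline mouse 3 Kcnk12 and Kcnn2 were both at -0.09, and without nicotine mouse 1 Kcnk1 was at -0.06. Kcns2 was at 0.06 without nicotine mouse 3 and Kcnq1ot1 at 0.07 without saline mouse 1. In chronic mice the lower values were Kcnj11 (-0.13), the pore of ATP-sensitive channels, Kcnj4 (-0.12) and Kcnd1 (-0.08). The upper ones were Kcnj12 (0.11), Kcnq1ot1 (0.11), Kcns2 (0.10) and Kcnq3 (0.06). Kcnj4 was at -0.23 without chronic nicotine mouse 2 and at -0.06 without saline mouse 4, without which Kcnj11 was at -0.08. Kcnd1 was at -0.02 without saline mouse 1 and Kcns2 at 0.04 without nicotine mouse 2. Kcnq1ot1 was at 0.07 without nicotine mouse 2 and at 0.19 without nicotine mouse 1.

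Averaged over both strains, 0 of 40 members were called in either phase by limma. In withdrawal mice 2 members had an unadjusted p under 0.05 (1.78% of all genes), Kcnd1 with 0.10 and Kcng2 with -0.06. Kcns2 was at 0.11 and Kcne2 at -0.15. In chronic mice 3 had one (2.62% of all genes), Kcnab3 with -0.23, Kcnk1 with -0.12 and Kcnq1ot1 with 0.10.

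Kcnk1, the weak inward-rectifying leak channel, had the smallest p of the members in 2 of the 4 tests of whether the response itself differed, and limma called 0 of 40 members in each of the 4. The response in DBA/2J minus that in C57BL/6J was 0.28 in withdrawal (unadjusted p = 0.01832, limma adjusted p = 0.6882), the single member with an unadjusted p under 0.05, against 7.06% of all genes. In DBA/2J the response in withdrawal minus that in chronic mice was 0.32 (SE 0.116, unadjusted p = 0.00779, limma adjusted p = 0.9804). Kcnab3, with 0.47, was the only other member with an unadjusted p under 0.05 there (3.74% of all genes). In C57BL/6J the same phase difference had 0 such members (2.5% of all genes). The strain difference in chronic mice had 2 (9.94% of all genes), Kcnd1 with 0.20 and Kcnk4 with -0.26 (limma adjusted p = 0.5005 and 0.4792).

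The single values show how small the Kcnk1 pattern is. In DBA/2J chronic mice it ran from 12.06 over a median of 12.24 to 12.46 under nicotine, against 12.23, 12.40 and 12.62 under saline. In C57BL/6J it ran from 12.10 over 12.39 to 12.51 in withdrawal nicotine mice, against 12.33, 12.49 and 12.65 in their saline controls. The C57BL/6J chronic nicotine mice had 12.30, 12.42, 12.45, 12.50 and 12.59, against 12.37 to 12.75 under saline. Nicotine medians were thus below the saline medians in 3 groups and above in DBA/2J withdrawal mice, with overlap in all 4.

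**Figure D4:**
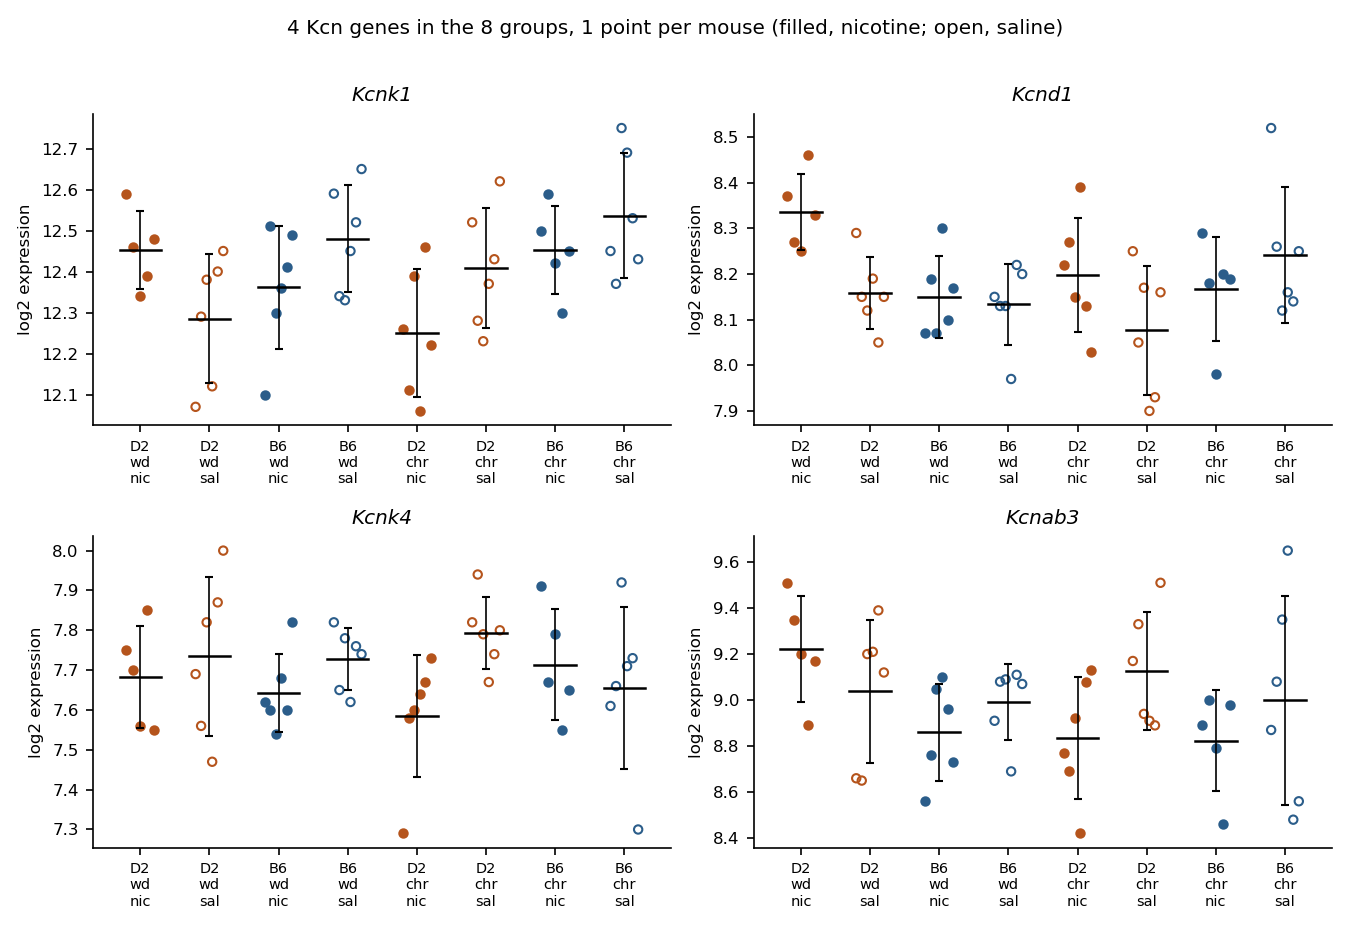
Log2 values of Kcnk1, Kcnd1, Kcnk4 and Kcnab3 in each mouse, by strain and treatment, withdrawal groups left of chronic groups (filled points nicotine, open points saline). The DBA/2J withdrawal nicotine mice have the highest mean of the 8 groups for Kcnd1 (single mice 8.25 to 8.46) and for Kcnab3.

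Pump removal was compared with the pump kept, within each strain and treatment, and called 0 of 40 members by limma in each of the 4 contrasts. In DBA/2J nicotine mice 6 members had an unadjusted p under 0.05, 15.0% against 3.76% of all genes, 5 with higher and 1 with lower values in withdrawal. They were Kcnc2 (0.45, SE 0.169), Kcnh5 (0.43, SE 0.166), Kcnab3 (0.39), Kcnk1 (0.20), Kcnd1 (0.14) and Kcne2 (-0.26), each with a limma adjusted p of 0.9998. Kcnab3 had 8.89, 9.17, 9.20, 9.35 and 9.51 in withdrawal nicotine mice, against 8.42 to 9.13 in chronic nicotine mice, so that 4 of 5 withdrawal mice were above the chronic range. Kcnip1 was at -0.22. Without DBA/2J chronic nicotine mouse 4 Kcnh5 was at 0.26 and Kcnip1 at -0.12, and without mouse 3 of that group Kcne2 was at -0.17. In the same contrast the cortical excitatory markers differed by 0.51 (7 of 7 positive), the oligodendrocyte markers by 0.25 (9 of 9 positive) and the spiny neuron markers by -0.08 (1 of 12 positive), and their part in these values was not tested.

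In C57BL/6J the member with the smallest p on pump removal was Kcnj16, in nicotine and in saline mice. In nicotine mice it ran from 7.70 over a median of 8.06 to 8.33 in withdrawal, against 8.23, 8.29, 8.31, 8.34 and 8.50 in chronic mice. In saline mice it ran from 8.00 to 8.29 in withdrawal, against 8.12 to 8.81 in chronic mice. The differences were -0.30 (SE 0.104, unadjusted p = 0.005743, limma adjusted p = 0.5165) and -0.26 (unadjusted p = 0.01374, limma adjusted p = 0.9981). It was the only member with an unadjusted p under 0.05 in either, where 7.81% and 3.75% of all genes had one. The saline difference was -0.16 without C57BL/6J chronic saline mouse 3. Astrocyte markers differed by -0.18 in nicotine mice (1 of 9 positive) and by -0.05 in saline mice, and oligodendrocyte markers by 0.09 (7 of 9 positive) and 0.22 (9 of 9 positive). Their part in the Kcnj16 values was not tested.

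Other members given in these contrasts were Kcnk9 (0.19), Kcnj11 (0.13) and Kcnn2 (-0.12) in C57BL/6J nicotine mice and Kcnmb4 (0.11), Kcnh6 (0.07) and Kcnd1 (-0.11) in C57BL/6J saline mice. Kcnk9 was at 0.09 without chronic nicotine mouse 3 and Kcnd1 at -0.05 without chronic saline mouse 1. Kcnmb4 was at 0.07 without chronic saline mouse 6 and at 0.17 without chronic saline mouse 4. In DBA/2J saline mice the single member with an unadjusted p under 0.05 was Kcne1l with -0.18 (4.05% of all genes), beside Kcnip1 (-0.20), Kcnq1ot1 (0.09) and Kcnq3 (0.09).

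The authors' S-scores cover all 95 members, and limma called 0 of 95 members and 0 of 25883 genes (0.0%) in each of the 4 nicotine groups. A positive score means a higher signal in the nicotine mouse than in its matched saline mice. The scores come from the same arrays as the log2 values, and every score of a group shares its saline mice, so neither is independent of the other. In DBA/2J withdrawal mice 66 of 95 members had a positive mean score, 69.5% against 52.3% of all genes, with a median of 0.41 against 0.03. The count was 38 of 95 in C57BL/6J withdrawal mice (median -0.09), against 48.8% of all genes. It was 38 of 95 in DBA/2J chronic (-0.17, against 44.6%) and 41 of 95 in C57BL/6J chronic mice (-0.06, against 50.6%).

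In DBA/2J withdrawal mice 12 members had a positive score with an unadjusted p under 0.05 in limma and 0 had a negative one. Of all genes 4.62% and 1.81% did. The background differed with brightness. Among the genes that pass the log2 filter 61.7% had a positive mean score and 7.47% a positive one with an unadjusted p under 0.05, against 26 and 6 of the 40 members that pass. Among genes with S-scores only these shares were 50.9% and 4.42%, against 33 and 6 of the 39 such members. With each score column centred on its median, 63 of 95 members were positive and 10 had an unadjusted p under 0.05. The shares of all genes after this centring are not given here.

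The 12 were spread over pores and accessory subunits. The voltage-gated pores included Kcna1 (1.27) and Kcna2 (1.04), pores of the axon membrane, Kcnc1 (1.25) and Kcnd1 (1.2). The accessory subunits were Kcnip3 (2.13), Kcnip2 (1.99) and Kcnab2 (1.64). The others were Kcnt1 (2.13), the sodium-activated pore, the leak channels Kcnk1 (1.30) and Kcnk12 (0.86), and the modifier Kcns2 (1.01). The smallest p of the 12 was that of Kcnk1 (unadjusted p = 0.004834, limma adjusted p = 0.6393).

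Of the genes with S-scores only, Kcnt1 had 1.04, 1.08, 1.34, 3.21 and 3.98 in the 5 DBA/2J withdrawal mice. Kcna1 had 0.03, 0.36, 1.42, 1.81 and 2.72. Kcnip3, a calcium-binding protein that binds Kcnd pores and DNA, had -1.86, 1.56, 2.99, 3.12 and 4.85. All 5 mice were above 0 for Kcnt1 and Kcna1 and 4 of 5 for Kcnip3, with scores spread over several units in each gene.

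In the other groups fewer members had an unadjusted p under 0.05. In DBA/2J chronic mice there were 9, 3 positive and 6 negative, where 2.99% and 2.64% of all genes had one. The positive ones included Kcnip2 (2.21) and Kcnh4 (1.67). The negative ones were Kcnh7 (-4.78), an ether-a-go-go related pore, Kcnab3 (-2.74), Kcnk4 (-1.51), Kcns1 (-1.07), Kcnh8 (-1.0) and Kcnk16 (-0.81). Kcnh7 had the widest scatter, from -9.52 over a median of -4.33 to 0.70. In C57BL/6J withdrawal mice 3 had one, all negative, Kcna2 (-0.99), Kcns3 (-0.95) and Kcnk1 (-0.86), where 1.99% of all genes did, and in C57BL/6J chronic mice only Kcnk1 (-0.92), where 2.39% did.

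**Figure D5:**
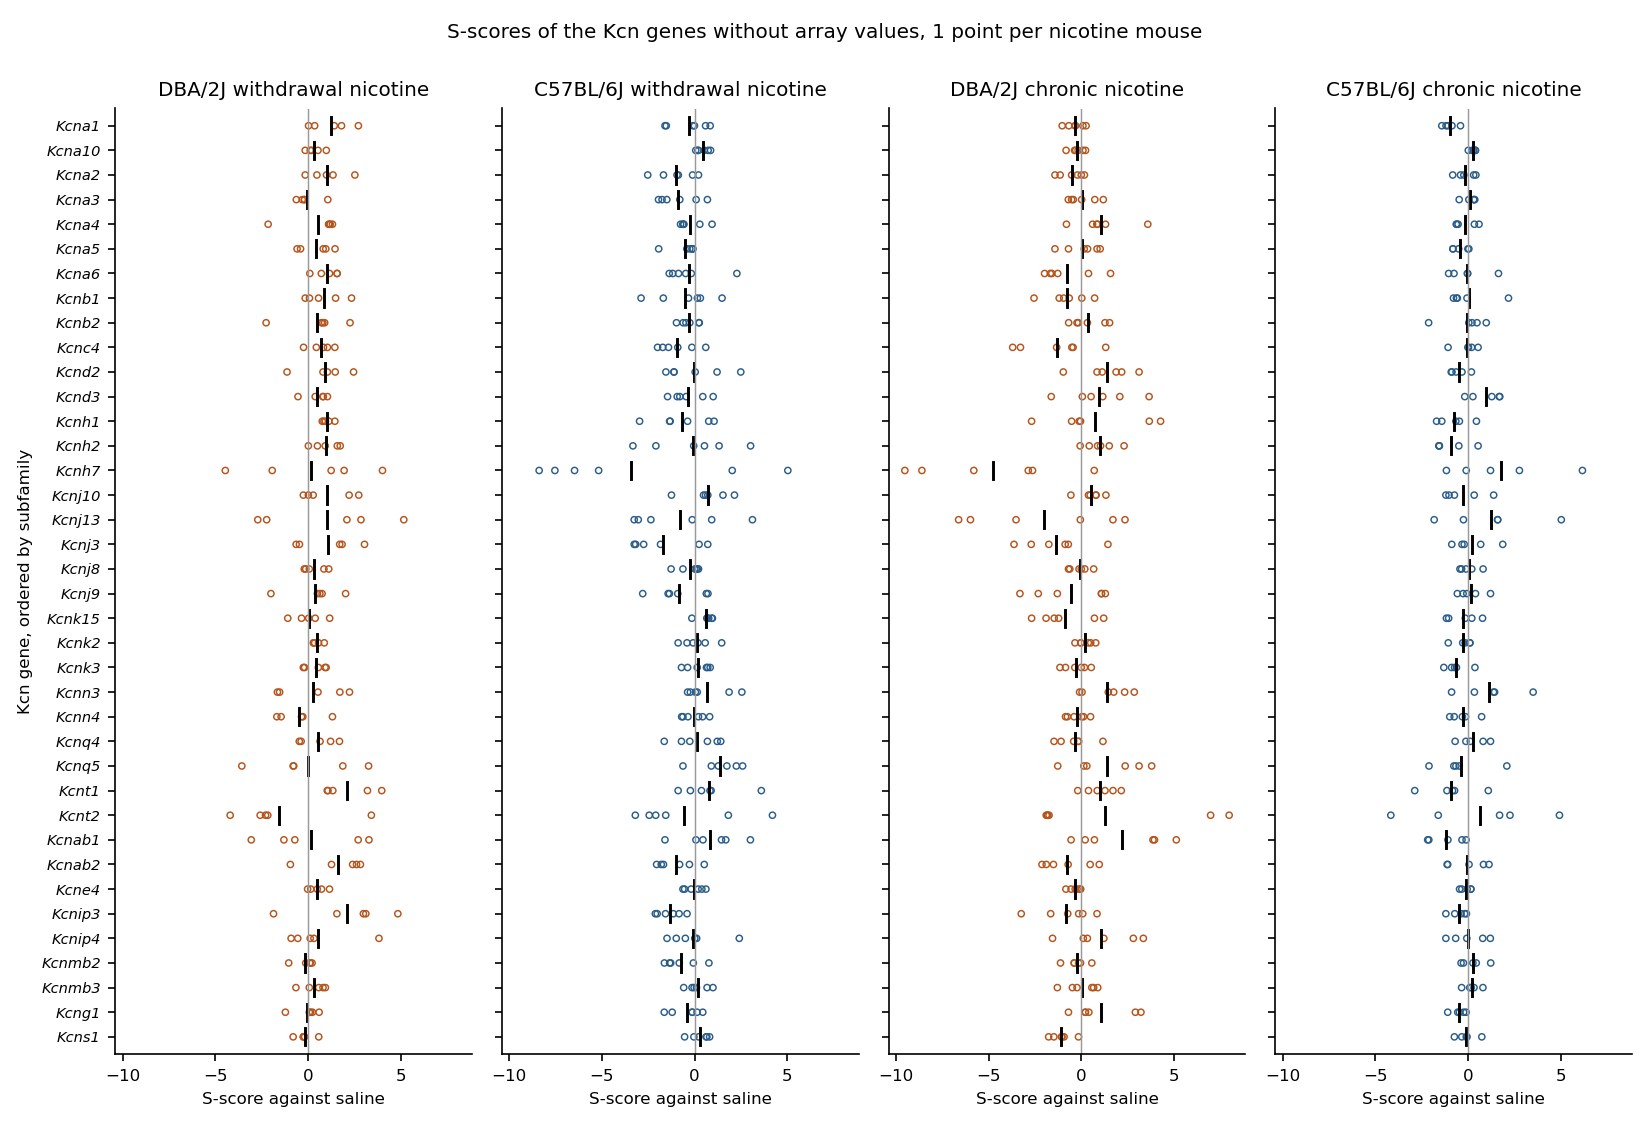
S-scores of 38 of the 39 Kcn genes without per-array values in each nicotine mouse of the DBA/2J withdrawal, C57BL/6J withdrawal, DBA/2J chronic and C57BL/6J chronic groups (points, 1 per mouse, with the mean as a black tick, in score units against the saline mice of the same strain and phase). In the DBA/2J withdrawal panel most genes have a mean above 0, and single mice scatter over several units.

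The members known for spiny neurons and for dopamine or opioid receptor signalling, 20 by name, were mixed. Of them 9 were tested on the log2 scale. In the strain contrasts 3 of 9 had a positive difference in nicotine mice (median -0.05) and 0 of 9 in saline mice (median -0.11), where Kcnq3 was called in both and Kcnj4 in saline mice. Of the 12 spiny neuron markers tested, 3 were positive in nicotine and 1 in saline mice. Among all genes, 10.8% were called lower and 15.4% higher in DBA/2J nicotine mice, and 19.4% lower and 12.5% higher in saline mice. These are shares of calls. The share of all genes with a positive strain difference is not given here, so the counts of signs cannot be set against a background. Kcnj2 and Kcnj4 build the strong inward rectifier of the silent state. Kcnj2 had group means between 9.324 and 9.563 and Kcnj4 between 10.40 and 10.70. Kcnma1 had group means from 13.09 to 13.28, Kcnn2 from 9.175 to 9.380, Kcnip1 from 8.302 to 8.594 and Kcnip2 from 11.71 to 11.96.

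The G protein-gated rectifiers Kcnj3, Kcnj6 and Kcnj9 open on dopamine and opioid receptor activity. Their mean S-scores were 1.10, 1.09 and 0.39 in DBA/2J withdrawal mice, -1.68, -1.68 and -0.86 in C57BL/6J withdrawal mice, -1.37, -1.94 and -0.57 in DBA/2J chronic mice and 0.23, 0.96 and 0.15 in C57BL/6J chronic mice. None had an unadjusted p under 0.05. On the log2 scale Kcnj6 had group means from 8.287 to 8.627, with single mice from 7.58 to 9.27.

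The A-type pores Kcnd2 and Kcnd3 scored 0.93 and 0.50 in DBA/2J withdrawal mice, -0.01 and -0.37 in C57BL/6J withdrawal mice, 1.37 and 0.98 in DBA/2J chronic mice and -0.50 and 0.96 in C57BL/6J chronic mice. Kcna4, the A-type pore of the Kcna family, scored 0.53, -0.22, 1.07 and -0.16 in the same order of groups. Kcnn3, a small-conductance pore, scored 0.27, 0.66, 1.39 and 1.16, Kcnab1, a beta subunit, 0.19, 0.84, 2.22 and -1.16, and Kcnk2, a leak channel opened by lipids and stretch, 0.48, 0.14, 0.21 and -0.26. Over the 20 genes, 19 had a positive mean score in DBA/2J withdrawal mice, with a median of 0.70, beside 69.5% of all members and 52.3% of all genes. The share was 61.7% of the genes that pass the log2 filter and 50.9% of those with S-scores only. In each of the other groups the scores given above for genes of this list had both signs. The same count for the other groups is not given here, and the list was chosen with earlier results of these data known.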

How the data were processed

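RNA of the nucleus accumbens was measured on 46 arrays, 1 per mouse, each a separate animal, so p-values measure the spread between mice. The authors deposited log2 values per array and transcript cluster, from 2.582 to 19.886, already scaled between arrays (array medians 6.524 to 6.631). Per the file headers, the authors also scored each of 22 nicotine mice relative to its matched saline group (an S-score, 1 column per mouse) and gave the number of probes per cluster. The deposited score values are signed and unitless. The procedures behind log2 values and scores and the build of the coordinates are not given in the sources that were used. Each of the 22 nicotine mice matched its own score column best (r from 0.593 to 0.854), which fixed the direction of the scores. Of 95 Kcn genes, 56 have log2 values.

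Features with 1 gene symbol were kept, the brightest per gene, and filtered on brightness (above the 50th percentile on 5 or more arrays). limma 3.58.1 in R 4.3.3 (data.table, version 1.17.8; lmFit and eBayes, 8 group coefficients, two-sided, degrees of freedom 38 residual plus 4.14 prior) gave 17 contrasts, each adjusted by Benjamini-Hochberg over 9607 genes at 0.05. Mean scores were tested with limma over 25883 genes, with the saline mice in the standard error. Both procedures were tested on simulated data. Tables and plots used Python 3.11.15, pandas 2.3.3, numpy 2.4.6 and matplotlib 3.10.9. The number of arrays limits the precision. Named were all called members, up to 4 members in each direction with the smallest p where fewer than 4 passed, and 20 members known for spiny neurons. Members, lists and tests were chosen with earlier results of these data known. Alternatives covered the filter, the scaling, the groups in the fit, a replicate block, array weights, the prior, marker covariates, the choice of feature and leaving out each mouse. Values of 2 members are not reported here by name or in the plots of single genes, and counts include them. Sequences are from RefSeq GRCm38.p6.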

Additional observations from a re-analysis of the deposited data

Results flagged for a closer look

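Among 34 named Kcn genes in 8 groups, 272 sets of 5 or 6 mice were searched for a single mouse far from the others by Dixon's criterion, and 13 sets in 8 genes had one. Chance gives about 1 in 20 sets. Kcng3 was high in 3 DBA/2J groups, with 10.84 in withdrawal nicotine mouse 4 (next mouse 10.32), 11.03 in chronic nicotine mouse 4 (next 10.49) and 11.11 in chronic saline mouse 1 (next 10.44). Kcnn2 was high in 3 mice, with 9.686 in DBA/2J chronic nicotine mouse 5 (next 9.3), 9.593 in C57BL/6J withdrawal saline mouse 3 (next 9.326) and 9.592 in C57BL/6J chronic saline mouse 4 (next 9.394). Kcnd1 was at 8.518 in C57BL/6J chronic saline mouse 1 (next 8.263) and at 7.967 in C57BL/6J withdrawal saline mouse 4 (next 8.132). Kcnf1 was at 9.121 in C57BL/6J withdrawal nicotine mouse 2 (next 8.665), and Kcnh4 at 8.984 in mouse 4 of the same group (next 8.854). The remaining low values were Kcnk4 at 7.294 in DBA/2J chronic nicotine mouse 1 (next 7.582), Kcnk13 at 7.174 in DBA/2J withdrawal saline mouse 3 (next 7.465) and Kcnh5 at 11.7 in C57BL/6J withdrawal saline mouse 3 (next 11.99).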

How the results depend on the processing

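With the 3 marker means as covariates, 9 members were called between the strains in nicotine mice, 3 of them shared with the 5 reported, and 2 in saline mice, of which Kcnc2 is 1 of the 8 reported. The cause was not tested, and the shares of all genes called under this fit are not given here. With the spread of the saline mice left out of the score test, limma called 1 member in DBA/2J withdrawal (Kcnk1) and 1 in DBA/2J chronic mice (Kcns1). The saline mice are the shared reference of the scores, so this setting leaves out a part of the error. The shares of all genes called under it are not given here either. The directions that turned were Kcnip2 in DBA/2J chronic mice with the covariates (-0.021) and Kcnh6 in DBA/2J withdrawal mice with arrays centred (0.0099) or quantile normalized (0.0095), the cause of which was not tested. Leaving out 1 mouse at a time gave 5 to 7 calls between the strains in nicotine and 6 to 10 in saline mice, and 0 in all other contrasts. Kcnc2, Kcnf1, Kcnq3, Kcnj4, Kcnq1ot1, Kcnj16 and Kcnk12 kept their calls in each repeat. Kcnk1 lost its call without C57BL/6J chronic saline mouse 3, DBA/2J chronic saline mouse 3 or DBA/2J withdrawal saline mouse 1. Kcng2 lost it without C57BL/6J chronic saline mice 2 or 4, C57BL/6J withdrawal saline mice 3 or 5, DBA/2J chronic saline mouse 2 or DBA/2J withdrawal saline mice 1 or 4, with differences from 0.066 to 0.090 over the repeats. Kcng3 lost it without any 1 of 15 mice (C57BL/6J chronic saline mice 3, 4 and 5, C57BL/6J withdrawal saline mice 1, 3, 4 and 6, DBA/2J chronic saline mice 1, 4 and 5, and DBA/2J withdrawal saline mice 1, 2, 4, 5 and 6), with differences from 0.19 to 0.29. The mouse number as a replicate block called 5 members in nicotine and 8 in saline mice, the same members. The shares of all genes called with the block and in the repeats that left out 1 mouse are not given here. The labels do not say that mice of 1 number belong together, and same-numbered mice deviated together in few pairs (r from -0.35 to 0.20, over 0.1 in 2 of 22 pairs).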

Other observations

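Partners of potassium channels that carry other names were read from a list of 20 genes, of which 7 were tested on the log2 scale, 12 have S-scores only and Adam22 was not found in the tables by that symbol. Between the strains limma called 4 of 7 in nicotine mice (26.2% of all genes) and 2 of 7 in saline mice (31.8% of all genes). Abcc8, the sulfonylurea receptor that forms ATP-sensitive channels with Kcnj11, was higher in DBA/2J by 0.30 (SE 0.0461, limma adjusted p = 1e-06) in nicotine and by 0.26 (SE 0.0440, limma adjusted p = 8e-06) in saline mice. Kcnj11 itself was at -0.02 and -0.09 and was not called. Nedd4l, a ubiquitin ligase that takes channels off the membrane, differed by -0.12 in nicotine (limma adjusted p = 0.04528) and -0.19 in saline mice (0.000622), lower in DBA/2J in both. Hcn4, a pore of the hyperpolarisation-activated current, differed by 0.19 in nicotine mice (limma adjusted p = 0.02721), and Ank3, which anchors channels at the axon start, by -0.09 (0.04367), while their saline values of 0.15 and -0.08 did not pass.

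Nicotine against saline called 0 of 7 partners by limma on the log2 scale and 0 of 19 by S-score in each group, with 0 unadjusted p-values under 0.05 on the log2 scale. By S-score 1 partner had one in DBA/2J withdrawal mice, 1 in C57BL/6J withdrawal mice, 2 in DBA/2J chronic mice and 2 in C57BL/6J chronic mice. Of all 25883 genes, 4.62% had one with a positive and 1.81% with a negative score in DBA/2J withdrawal mice. The share in either direction was 2.94% in C57BL/6J withdrawal, 5.63% in DBA/2J chronic and 3.13% in C57BL/6J chronic mice. The 2 partners in DBA/2J chronic mice were Dpp6, an auxiliary subunit of Kcnd channels, with 2.72, and Cntn2, which clusters Kcna channels along myelinated axons, with -2.61.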
